A study of Mus musculus with 28 samples.

Results

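The genes described here are Myo6, Enah, Akr1c18, B4galt4, Hbegf and Fam46a, that is 6 of the 23222 gene symbols measured. They were selected on measured values, RPKM that were much higher with interleukin-2 (IL-2) than with interleukin-21 (IL-21) in the late libraries, with no numerical threshold. RPKM is the number of reads per kilobase of transcript, scaled to the library total. Their difference between the cytokines is therefore a description of the choice and not a finding, and it is given without a test. The RNA was from CD4+ T cells taken from the spleens of C57BL/6 mice of wild-type genotype. All cells had been activated for 3 days on plate-bound anti-CD3 (2 µg/ml) with anti-CD28 (1 µg/ml) and rested overnight. They then received no cytokine (the control), IL-2, or IL-21, and cytokine-treated cells were collected after 0.5, 2, 4 or 24 h. Each of these 9 conditions has 1 RNA-seq library, so differences could not be checked in replicates and carry no p-values. No later control was analysed, so cytokine and time in culture cannot be told apart in comparisons with the control. The sources used here do not give the age of the mice, the cytokine doses of the RNA cultures or whether animals were pooled.

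IL-2 and IL-21 are cytokines that share the common gamma chain of their receptors. In T cells IL-2 signals mainly through the transcription factor STAT5 and supports growth, survival and effector differentiation, whereas IL-21 signals mainly through STAT3 and is known for its part in follicular help. Myo6 encodes myosin VI, the motor that walks towards the minus end of actin filaments and carries endocytic cargo. Enah encodes Mena, which promotes filament elongation at the leading edge of cells. Akr1c18 encodes a hydroxysteroid dehydrogenase that inactivates progesterone, and B4galt4 a Golgi enzyme that adds galactose to the sugar chains of glycoproteins and glycolipids. Hbegf encodes a membrane-anchored growth factor of the EGF family that is released by proteolysis. Fam46a, now called Tent5a, encodes a cytoplasmic poly(A) polymerase that lengthens the tails of messenger RNAs.

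The genes lie on 5 chromosomes of the mouse genome build mm9. Myo6 is on chromosome 9 (NM_001039546, plus strand, 7868 bases of transcript), Enah on chromosome 1 (NM_001083121, minus, 3487), Akr1c18 on chromosome 13 (NM_134066, minus, 1172), B4galt4 on chromosome 16 (NM_019804, plus, 2300) and Fam46a on chromosome 9 (NM_001160379, minus, 5450). Hbegf is on a chromosome of its own among the 6 (NM_010415, minus, 2375). Enah has 4 transcripts in the files and Fam46a has 2, and the one with the highest mean level stands for the gene.

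Because the genes were high together under IL-2, the bases upstream of their starts are shown for the 5 genes with a window in the RefSeq promoter table. The build is GRCm38.p6, which differs from the mm9 of the expression files. Each stretch of 120 bases is read 5′ to 3′ on the gene's strand. Capitals mark the GC box, GGGCGG or its reverse complement CCGCCC, which is the core of Sp1-type sites, and neighbouring boxes may overlap. The stretch ends 1 base before the start for Enah, Akr1c18 and Fam46a, 59 bases before it for Myo6 and 40 bases before it for B4galt4.
Myo6 (chr9:80164856-80164975, plus strand): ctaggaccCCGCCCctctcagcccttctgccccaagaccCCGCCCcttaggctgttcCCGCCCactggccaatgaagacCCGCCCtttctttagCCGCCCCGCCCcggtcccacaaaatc
Enah (chr1:182019981-182020100, minus strand): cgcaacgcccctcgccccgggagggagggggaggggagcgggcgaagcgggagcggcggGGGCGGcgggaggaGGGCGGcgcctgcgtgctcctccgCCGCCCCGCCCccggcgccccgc
Akr1c18 (chr13:4150647-4150766, minus strand): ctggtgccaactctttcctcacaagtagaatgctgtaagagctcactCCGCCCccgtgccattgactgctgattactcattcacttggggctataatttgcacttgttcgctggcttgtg
B4galt4 (chr16:38742100-38742219, plus strand): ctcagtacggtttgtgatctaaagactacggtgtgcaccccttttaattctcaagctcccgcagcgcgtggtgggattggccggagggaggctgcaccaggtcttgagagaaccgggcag
Fam46a (chr9:85327151-85327270, minus strand): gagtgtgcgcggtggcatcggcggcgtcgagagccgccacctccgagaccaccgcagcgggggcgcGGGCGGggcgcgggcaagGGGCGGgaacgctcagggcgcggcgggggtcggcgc

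In the whole 300-base windows, from 250 bases before the start to 50 after it, a GC box on either strand was found in 5 of 5 genes, against 35.7% of 32851 windows of the same length. This share and those below are per window over 27025 symbols, expressed in these cells or not. They are no background for expressed genes, so a trait of these genes cannot be read from them. Myo6 had 7 boxes, Enah 6, Fam46a 2, and Akr1c18 and B4galt4 had 1 each. The B4galt4 box lies outside the stretch printed above. Base composition separated the genes: Enah had 83.3% G and C and 49 CpG dinucleotides, Akr1c18 had 42.3% and 5, and the medians over all windows were 52.7% and 7. The TATA box sequence TATAAA, on either strand, was found in 1 of 5 genes, Fam46a, against 13.6% of windows. Like the B4galt4 box, the Fam46a match lies outside the stretch printed above. The STAT motif TTCNNNGAA, which reads the same on both strands, was found in 0 of 5 genes against 8.3% of windows. This says only that these letters are not in these windows. A match or its absence is a description of sequence and not of binding.

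Library totals ran from 29.5 to 44.3 M reads, and a single read on 1 kb of transcript adds 0.0226 to 0.0339 RPKM. Levels below are RPKM, which allow comparison between genes because they are per length. Ratios carry exact 95% intervals from the read counts, which cover counting error only. All 6 genes reached 1 RPKM in at least 1 library, the limit used for counting genes, and 3 of them (Enah, B4galt4 and Hbegf) did so only in IL-2 libraries. The summed level of the 7 CD4+ T cell markers was 999 to 1600 RPKM in the 9 libraries, with none at 0. In bulk RNA, fewer cells of a type and less RNA per cell cannot be told apart.

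The genes with roles at the actin cytoskeleton, Myo6 and Enah, were low without cytokine and higher at each later IL-2 time up to 24 h. Myo6 stood at 0.717 RPKM in the control (194 reads), at 1.11, 5.37, 12.8 and 41.5 RPKM after 0.5, 2, 4 and 24 h of IL-2, and at 0.963, 1.30, 0.901 and 1.92 RPKM after the same times of IL-21. The IL-2 libraries from 2 h on were the 3 highest, and both cytokines were above the control at each time. After 24 h the Myo6 level with IL-2 was 57.9 times the control (50.2 to 67.0) and 21.6 times that with IL-21 (19.9 to 23.6). With this level Myo6 exceeded 84.7% of the 11047 expressed genes, against 2.63% in the control. Enah stood at 0.0667 RPKM in the control (8 reads, interval 0.0288 to 0.132 RPKM). Its IL-2 libraries held 0.0875, 1.68, 7.78 and 18.2 RPKM in order of time, and its IL-21 libraries 0.0919, 0.304, 0.521 and 0.643 RPKM. The control and both libraries of 0.5 h held 8 to 11 Enah reads and their intervals overlapped. All later libraries were above them. The ratio of Enah with IL-2 to the control after 24 h was 272 (138 to 631), and its wide interval comes from the few control reads. Its ratio to IL-21 at that time was 28.2 (22.7 to 35.5), and the 4 transcripts gave 28.2 to 28.5.

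The metabolic enzymes Akr1c18 and B4galt4 were also higher at each later IL-2 time. Akr1c18 stood at 1.91 RPKM in the control (77 reads). Its IL-2 libraries held 3.30, 8.30, 19.8 and 31.0 RPKM in order of time, and its IL-21 libraries 1.14, 1.00, 1.24 and 0.923 RPKM. Every IL-2 library lay above the control and every IL-21 library below it. After 24 h Akr1c18 was 16.2 times the control with IL-2 (12.9 to 20.7) and 0.483 times the control with IL-21 (0.322 to 0.715), which gave a ratio of 33.6 between the cytokines (24.6 to 47.1). In log2(RPKM + 1) that was the third highest difference between the cytokines of the 11047 genes at 24 h, a rank that restates the choice. B4galt4 stood at 0.228 RPKM in the control (18 reads). Its IL-2 libraries held 0.398, 1.40, 3.92 and 6.78 RPKM in order of time, and its IL-21 libraries 0.241, 0.344, 0.223 and 0.505 RPKM. The IL-2 libraries from 2 h on were clear of the rest, while those of 0.5 h were not separable from the control. After 24 h B4galt4 with IL-2 was 29.8 times the control (18.6 to 50.7) and 13.4 times the level with IL-21 (9.85 to 18.7). Even then it remained a low transcript, above 38.3% of the expressed genes.

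Hbegf, the growth factor gene, and Fam46a, the poly(A) polymerase gene, differed from these genes in having their highest level at the earliest time. Hbegf stood at 0.331 RPKM in the control (27 reads). Its IL-2 libraries held 5.01, 1.81, 1.80 and 3.83 RPKM in order of time, and its IL-21 libraries 0.748, 0.162, 0.129 and 0.289 RPKM. Its 4 IL-2 libraries were the highest of the 9. The Hbegf ratio of IL-2 to the control was 15.2 at 0.5 h (10.2 to 23.3), 5.48 at 2 h (3.62 to 8.59) and 11.6 at 24 h (7.78 to 17.9). With IL-21 it was 2.26 times the control at 0.5 h (1.42 to 3.70), 0.489 times at 2 h (0.250 to 0.930) and 0.391 times at 4 h (0.180 to 0.798). Its IL-21 level at 24 h was within counting error of the control, at 0.874 times (0.490 to 1.56). Fam46a was the one gene of the 6 that was well expressed without cytokine. It stood at 15.2 RPKM in the control (2849 reads). Its IL-2 libraries held 41.5, 33.0, 34.6 and 34.9 RPKM in order of time, and its IL-21 libraries 18.4, 5.60, 3.81 and 5.53 RPKM. The cytokines thus lay on opposite sides of the control from 2 h on. After 24 h Fam46a was 2.29 times the control with IL-2 (2.19 to 2.4) and 0.363 times with IL-21 (0.339 to 0.389). Its ratio of 6.31 between the cytokines (5.92 to 6.73) therefore combines a higher level in one arm with a lower level in the other.

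**Figure D1:**
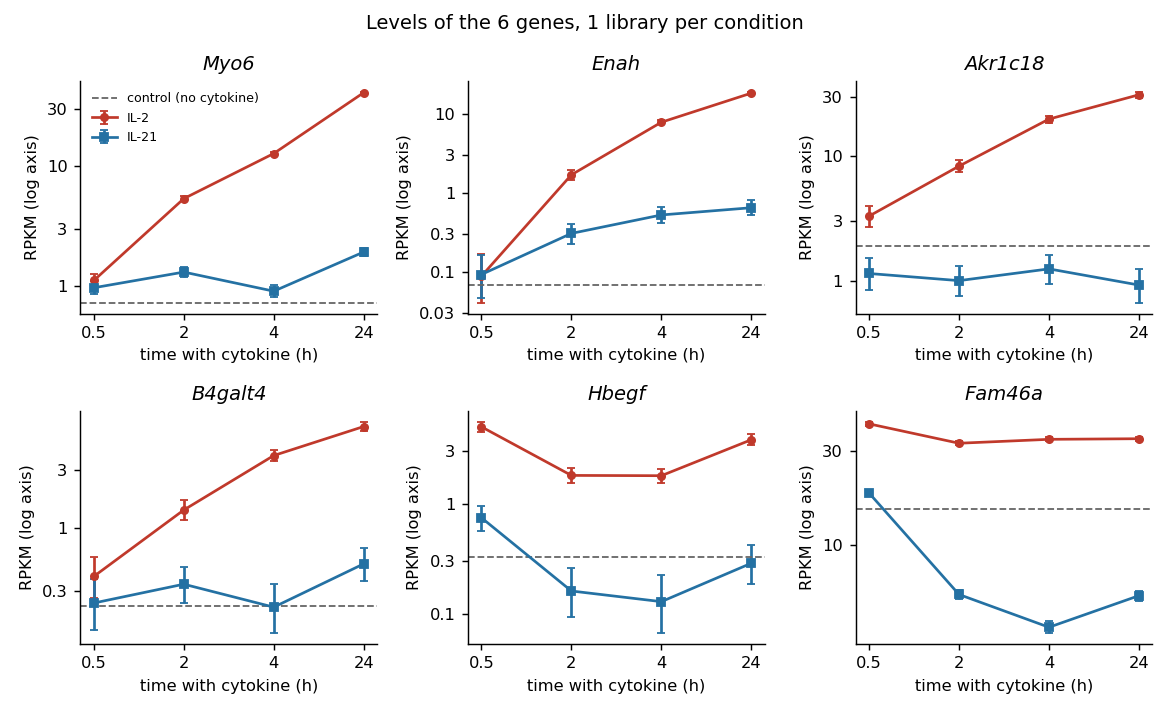
Level of each gene in RPKM (log axis, own range per panel) after 0.5, 2, 4 and 24 h with IL-2 (red circles) or IL-21 (blue squares), 1 library per point, times evenly spaced; bars are exact 95% Poisson counting intervals and the dashed line is the control. Myo6, Enah, Akr1c18 and B4galt4 are highest after 24 h of IL-2, whereas Hbegf (5.01 RPKM) and Fam46a (41.5 RPKM) are highest at 0.5 h.

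Whether these genes were higher only with IL-2 depended on the scale. On the scale of log2(RPKM + 1), which damps differences of low genes, 0 of 6 were at least 2-fold above the control with IL-21 at any time, where 0.326%, 1.72%, 1.21% and 1.62% of the 11047 genes were at 0.5, 2, 4 and 24 h. A count of 0 of 6 is near these shares and is no result about the 6 genes. With a pseudocount of 0.1 RPKM in place of 1, Enah passed that limit at 2 h and 4 h, and Enah and Myo6 at 24 h. On the ratio of RPKM, counting intervals lay above 1 with IL-21 for 3 genes at 0.5 h (Myo6, Hbegf and Fam46a), 2 at 2 h and at 4 h (Myo6 and Enah) and 3 at 24 h (Myo6, Enah and B4galt4). Myo6 with IL-21 was 2.68 times the control at 24 h (2.27 to 3.16). Enah with IL-21 was 4.56 times the control at 2 h (2.14 to 11.2), 7.81 times at 4 h (3.76 to 18.8) and 9.64 times at 24 h (4.68 to 23.1), always below 1 RPKM. B4galt4 with IL-21 was 2.22 times the control at 24 h (1.26 to 4.08), from 44 reads against 18. Akr1c18 was the one gene whose interval lay below the control at all 4 IL-21 times. On the log2(RPKM + 1) scale Fam46a was the one gene at least 2-fold lower with IL-21: 0 of 6 genes were at 0.5 h, and 1 of 6 at 2, 4 and 24 h, where 0.0543%, 1.18%, 1.32% and 1.86% of all genes were.

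Against the control, 2 of the 6 genes (Hbegf and Fam46a) were at least 2-fold higher after 0.5 h of IL-2, where 0.407% of all genes were. After 2 h there were 5 of 6 (all genes 3.15%), with B4galt4 short of the limit at a log2 difference of 0.97. After 4 h (5.38%) and 24 h (9.58%) there were 6 of 6, of which Fam46a at 24 h (1.15) fell short at 0.95 with upper quartile scaling. The choice used late libraries with IL-2, so these late counts largely restate it. Enah, B4galt4 and Hbegf also reached 1 RPKM, the limit for counting genes, only with IL-2. The split of all genes at 24 h, 1058 higher and 734 lower, depended on scaling and became 689 higher and 1042 lower with upper quartile scaling. At 4 h it was 594 and 364, and 486 and 465 with that scaling.

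Between the cytokines, 3 of 6 genes were at least 2-fold higher with IL-2 at 0.5 h (Hbegf, Fam46a and Akr1c18), where 0.217% of all genes were. Akr1c18 was at the limit, with a log2 difference of 1.00, and fell short at 0.97 with TMM scaling. At 2 h there were 5 of 6 (0.643%) and at 24 h 6 of 6 (9.85%), which restates the choice of the genes. Enah at 2 h (1.04) fell short at 0.95 when its longest transcript was used. At 4 h their log2 differences ran from 1.31 for Hbegf to 3.21 for Akr1c18, beside a 99th percentile of 1.27 over all genes. The median log2 difference of the 6 was 0.59, 1.37, 2.70 and 3.00 at the 4 times in order, beside 0.08, 0.02, -0.00 and 0.07 over all genes. Over all genes at 24 h, 1088 were higher with IL-2 and 670 lower, and the split was 888 and 836 with TMM scaling and 803 and 909 with upper quartile scaling. The ratio between the cytokines at 0.5 h ranged from 0.952 for Enah (0.349 to 2.53) to 6.70 for Hbegf (5.09 to 8.94). For Myo6 at 1.15 (0.965 to 1.37), Enah and B4galt4 at 1.65 (0.886 to 3.15), the cytokines were not distinguishable at this depth after 0.5 h.

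**Figure D2:**
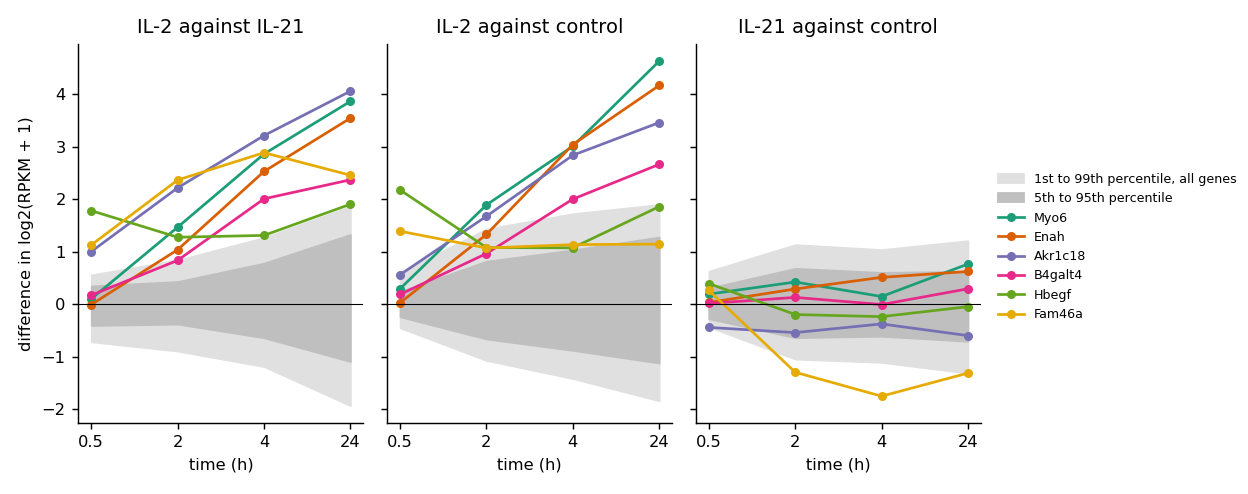
Difference in log2(RPKM + 1) of the 6 genes (lines, 1 library against 1) for IL-2 against IL-21, IL-2 against the control and IL-21 against the control at 0.5, 2, 4 and 24 h (evenly spaced), over bands that hold the 1st to 99th and the 5th to 95th percentile of 11047 genes. All 6 lines lie above the outer band at 4 h and 24 h in the first panel, and Fam46a lies below it at 2 h and 4 h in the last.

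Within the IL-2 series Hbegf and Fam46a were highest at 0.5 h and differed from each other after it, and the other genes were highest at 24 h. Relative to its 24 h level, Enah reached 0.482% at 0.5 h, 9.25% at 2 h and 42.8% at 4 h. Myo6 reached 30.9% of its 24 h level by 4 h, B4galt4 57.8% and Akr1c18 63.8%. Hbegf stood at 131% of its 24 h level at 0.5 h and at 47.1% at 4 h. Fam46a was at 119% at 0.5 h and stayed between 94.8% and 99.3% at 2 and 4 h. From 0.5 to 2 h of IL-2, 3 of 6 genes (Myo6, Enah and Akr1c18) were at least 2-fold higher, where 2.9% of all genes were, and Hbegf was at least 2-fold lower, where 1.66% were. From 2 to 4 h, 22 genes of 11047 (0.199%) were at least 2-fold higher, and 4 of them were Enah, Akr1c18, Myo6 and B4galt4, with log2 differences of 1.71, 1.16, 1.12 and 1.04. That step shares IL-2 libraries with the choice of the genes, so this count follows in part from the choice and is no separate finding. All genes split into 22 higher and 34 lower at that step, and 17 and 42 with upper quartile scaling, with which B4galt4 fell short at 0.99. From 4 to 24 h, 2 of 6 (Myo6 and Enah) were at least 2-fold higher, where 2.82% of all genes were; 311 genes were higher and 102 lower, and 228 and 154 with upper quartile scaling. In the IL-21 series, Fam46a was at least 2-fold lower at 2 h than at 0.5 h, where 1.02% of all genes were.

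The correlation of log2(RPKM + 1) over the 9 libraries is given as a description because each condition has 1 library. Genes are grouped by their time of highest level in these same libraries, so the correlations are no separate support for the grouping. Pearson's r was 0.925 to 0.993 among the 6 pairs of Myo6, Enah, Akr1c18 and B4galt4. It was 0.883 between Hbegf and Fam46a and 0.466 to 0.738 for the 8 pairs across. With a pseudocount of 0.1 RPKM in place of 1, these values were 0.852 to 0.992, 0.932 and 0.355 to 0.766 in the same order. Reads of the 6 genes together made up 92.3 per M reads in the control, 252, 245, 353 and 641 per M in the IL-2 series, and 112, 44.2, 32.0 and 50.4 per M in the IL-21 series. The order of levels after 24 h of IL-2 was Myo6, Fam46a, Akr1c18, Enah, B4galt4 and Hbegf, and no neighbours in that order had overlapping counting intervals.

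Among 3756 other genes that spanned at least a 2-fold range, the 3 most like each gene over the 9 libraries were listed. Tulp3 was closest to Enah (r = 0.999) and B4galt4 (0.990) and the third closest to Myo6 (0.985). It stood at 2.09 RPKM in the control, 7.38 after 24 h of IL-2 and 2.65 after 24 h of IL-21. Myo6 was followed most closely by Sgk3 (0.989) and Eri1 (0.987), and Enah next by Nedd1 (0.989) and Pfdn4 (0.986). Akr1c18 was followed by Gpr55 (0.992), Vim (0.990) and its own relative Akr1c13 (0.979), and B4galt4 next by Nedd1 and Orc1 (both 0.985). The genes closest to Hbegf were Gtf2b (0.981), Trib3 (0.957) and Eomes (0.933), and those closest to Fam46a were the cytokine genes Il4 (0.980) and Tnf (0.969) and Rcsd1 (0.966). With a pseudocount of 0.1 RPKM in place of 1, which widened the comparison to 5109 genes, all 3 neighbours remained for Fam46a, 2 for Myo6 and for Akr1c18, 1 for B4galt4 and for Hbegf, and 0 for Enah. Tulp3 was then the third closest to B4galt4.

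Among the 91 genes at 1 RPKM or more in the families and pathways of the 6 genes, 6 had a level at least 2-fold higher in the 24 h library of IL-2 than in that of IL-21 (6.59%) and 7 lower (7.69%). Over all genes 9.85% were higher and 6.06% lower, so these shares are near the background, and the counts below describe single lists and are no result about them. Of 12 other unconventional myosins at 1 RPKM or more, 0 were at least 2-fold higher or lower, with a median log2 difference of 0.37 beside 0.07 over all genes. The most abundant, Myo1g, a membrane-linked class I myosin of lymphocytes, stood at 108 RPKM with IL-2 and 83.0 with IL-21. Of 6 cargo adaptors of myosin VI, 0 were higher and 1 was lower (median 0.13). That one was Calcoco1, at 2.49 RPKM with IL-2 and 17.0 with IL-21, whereas the autophagy adaptor Tax1bp1 was at 84.0 and 67.6. Of 11 Ena/VASP family members and partners, 0 were higher and 1 lower (median -0.22). Evl, a relative of Enah, was the lower one at 74.9 RPKM with IL-2 and 155 with IL-21. Vasp, another relative and also abundant, was at 109 RPKM with IL-2 and 122 with IL-21. The actin-binding partner profilin, Pfn1, was at 1564 and 915 RPKM. Of 13 actin nucleators, 1 was higher, the formin gene Diap3 at 24.8 against 6.44 RPKM, and 0 were lower (median 0.15), with Actr3 of the Arp2/3 complex at 381 against 337 RPKM.

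Among 7 other aldo-keto reductases at 1 RPKM or more, 2 were higher with IL-2 and 0 lower (median 0.04), and both belong to the same subfamily as Akr1c18. Akr1c12 stood at 2.84 RPKM in the control, at 4.27, 6.34, 9.37 and 18.5 RPKM in the IL-2 series, and at 1.87 RPKM after 24 h of IL-21. Akr1c13 stood at 5.62 RPKM in the control, at 6.72, 11.7, 15.1 and 27.8 RPKM in the IL-2 series, and at 4.76 RPKM after 24 h of IL-21. The ratios between the cytokines were 9.90 for Akr1c12 (7.92 to 12.5) and 5.84 for Akr1c13 (5.05 to 6.78), below the 33.6 of Akr1c18. These genes are close copies, so reads could have been assigned among them and their separate values are uncertain. Akr1c14, Akr1c6, Akr1c20 and Akr1c21 of the same subfamily had 0 reads in both 24 h libraries, where 3 reads on 1 kb would be 0.0967 RPKM with IL-2 and 0.0792 with IL-21. The most abundant reductase, Akr1b3, was at 44.6 RPKM with IL-2 and 43.4 with IL-21. Of 12 genes of steroid synthesis and conversion, 2 were higher and 1 lower (median -0.04). Cyp11a1, which makes pregnenolone from cholesterol, was at 108 RPKM with IL-2, 31.9 with IL-21 and 65.3 in the control. Hsd17b7 was at 5.78 against 2.07 RPKM and Hsd17b11 at 2.81 against 8.22 RPKM.

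For B4galt4, 0 of 12 galactosyltransferases and partners were higher and 3 were lower with IL-2 (median -0.12), beside 9.85% higher and 6.06% lower over all genes. The lower ones were B4galnt1, B4galnt4 and Chst2, and no other B4galt gene was among them. Log2 differences were -0.57 for B4galt1, -0.05 for B4galt3, 0.51 for B4galt5 and -0.18 for B4galt7. B4galnt1, which acts in ganglioside synthesis, was at 59.0 RPKM with IL-2 and 127 with IL-21. B4galnt4 was at 5.29 against 17.4 RPKM and the sulfotransferase gene Chst2 at 2.11 against 10.5 RPKM. For Hbegf, 0 of 10 other EGF family ligands reached 1 RPKM in any library (highest 0.462), and Nrg4, the highest with IL-2 at 24 h, was at 0.251 RPKM. Of 4 ERBB receptors, the receptor family for these ligands, 1 reached 1 RPKM: Erbb3, at 1.53 RPKM with IL-2 and 2.2 with IL-21. The other 3, which include the known HB-EGF receptors Egfr and Erbb4, stayed at or below 0.0924 RPKM. Of 7 genes for HB-EGF shedding and partners, 0 were higher or lower (median 0.07), and the tetraspanin gene Cd82 was at 121 against 68.0 RPKM.

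The closest relative of Fam46a in these cells, Fam46c, differed in the opposite direction. Fam46c encodes another poly(A) polymerase and stood at 30.9 RPKM in the control, at 29.6, 12.5, 7.28 and 8.26 RPKM in the IL-2 series, and at 38.7, 29.9, 27.2 and 45.5 RPKM in the IL-21 series. From 2 h on every IL-2 library was below every IL-21 library, the reverse of Fam46a. After 24 h Fam46c was 5.51-fold lower with IL-2 than with IL-21 (5.02 to 6.05), and Fam46a was 6.31-fold higher. The other 2 family members stayed at or below 0.0224 RPKM. Of 9 other poly(A) and terminal nucleotidyltransferases, 1 was higher and 0 lower (median 0.30): Papd7, at 9.57 against 3.58 RPKM. The nuclear poly(A) polymerase gene Papola was at 55.9 against 38.8 RPKM.

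**Figure D3:**
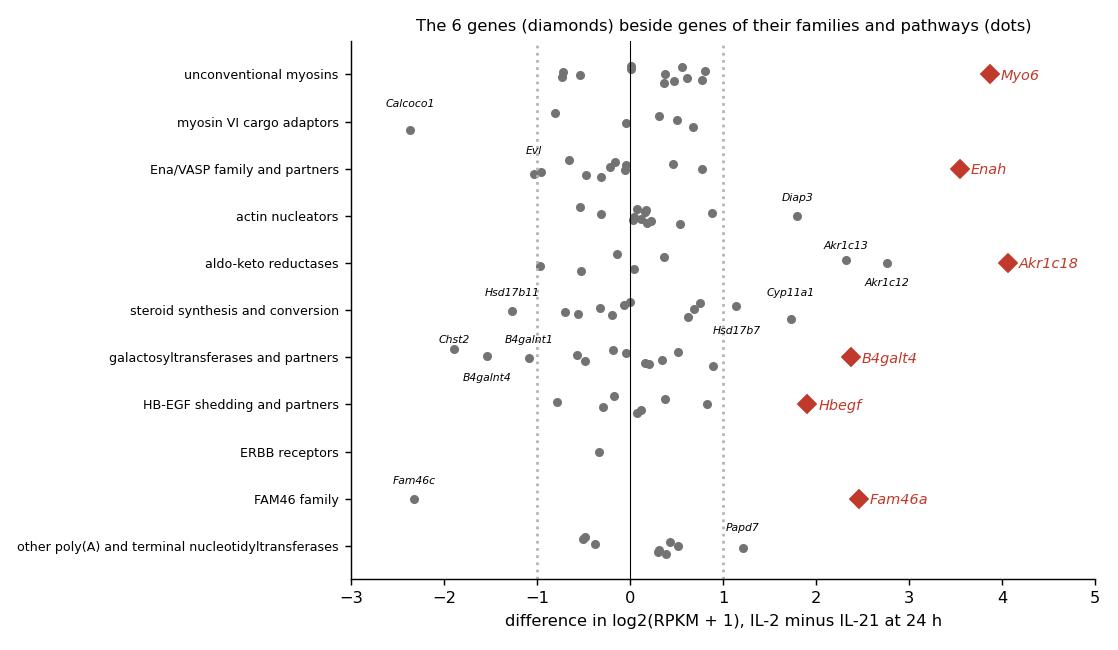
Difference in log2(RPKM + 1), IL-2 minus IL-21 at 24 h (1 library each), for the 6 genes (red diamonds) and for genes at 1 RPKM or more of their families and pathways (grey dots, 1 per gene); dotted lines mark 2-fold and genes beyond them are named. Only Akr1c12, Akr1c13, Diap3, Cyp11a1, Hsd17b7 and Papd7 lie beyond the upper line among the dots, and Fam46c lies opposite to Fam46a.

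**Figure D4:**
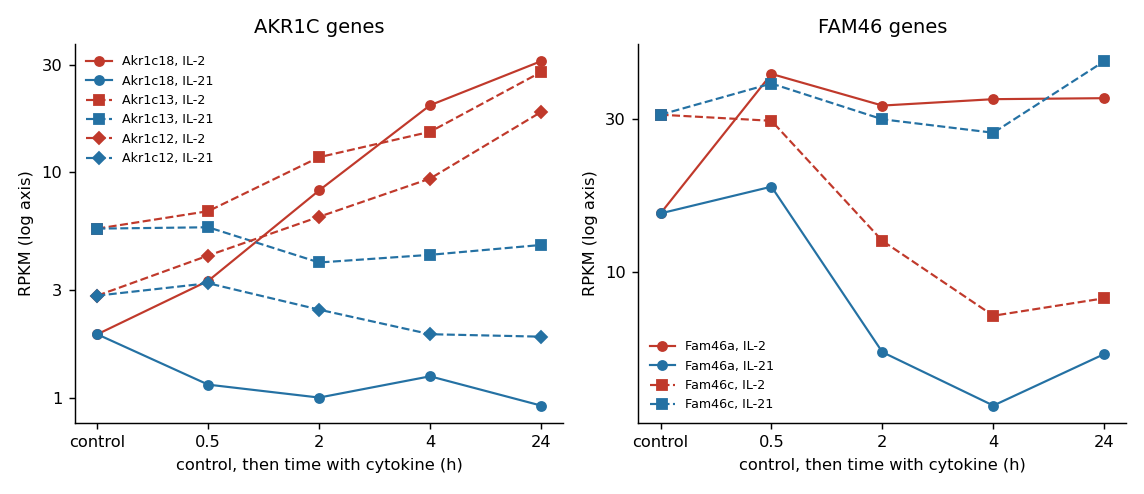
Level in RPKM (log axes) of 3 AKR1C genes (left) and of Fam46a and Fam46c (right) in the control and after 0.5, 2, 4 and 24 h (evenly spaced) with IL-2 (red) or IL-21 (blue), 1 library per point. The 3 AKR1C genes are highest after 24 h of IL-2, and Fam46c is at 8.26 RPKM there against 45.5 RPKM with IL-21.

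Markers of other cells were read beside these results, and their part in them was not tested. The 7 B cell markers summed to 58.8 RPKM in the control, 26.5 after 24 h of IL-2 and 11.3 after 24 h of IL-21, with none at 0. At 4 h these B cell sums were 48.8 with IL-2 and 41.0 with IL-21. The sum of 7 macrophage and monocyte markers was 2.97 RPKM after 24 h of IL-2 and 9.45 after 24 h of IL-21, the lowest and the highest of the 9 libraries. The 7 mast cell and basophil markers summed to 0.212 RPKM after 24 h of IL-2, the lowest of the 9, with Mcpt8, Fcer1a, Ms4a2 and Prss34 at 0. Fibroblast markers (6 genes) summed to 0.0805 to 0.259 RPKM, endothelial markers (4) to 0.00692 to 0.122 and epithelial markers (6) to 2.53 to 5.08. After 24 h of IL-2 the collagen genes Col1a2 and Col3a1 and the endothelial genes Cdh5, Kdr and Esam were at 0. The keratin genes Krt8, Krt5 and Krt14 were at 0 there and also in the control. Detected after 24 h of IL-2 were Epcam at 2.11 RPKM, Krt18 at 0.391 and Cdh1 at 0.0292. Col1a1 was at 0.0686 RPKM, Pdgfrb at 0.0119 and Tek at 0.00692 in the same library. NK cell markers (4) summed to 0.535 to 2.90 RPKM. They include Eomes, which activated T cells also express and which is among the genes closest to Hbegf. CD8 T cell markers (2) summed to 6.27 to 11.3 RPKM, dendritic cell markers (5) to 0.620 to 2.27 and erythroid markers (5) to 0.359 to 2.78. The CD4+ T cell sum was 999 RPKM after 24 h of IL-2, the lowest of the 9, and 1565 after 24 h of IL-21.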

How the data were processed

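RNA from 9 cultures of mouse CD4+ T cells was sequenced, and the other 19 of the 28 samples, which are chromatin libraries, were not used here. Per the labels' protocols a stranded kit was used. Per the submitters' processing notes the genome build was mm9 and the tools included Bowtie 0.12.9, TopHat2 2.0.11, SAMtools and HOMER; the sources used here do not give the counting program, the annotation or the use of strand. The authors deposited, per the file headers, a whole-number read count and an RPKM value for each of 29543 transcripts. Each deposited RPKM equals the count scaled by transcript length and by 1 library total, whole to within 0.01 reads (29.5 to 44.3 M).

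Each symbol was represented by its transcript of highest mean RPKM, as the choice of the 6 genes prescribes. Symbols of short RNAs (743) were left out. Genes with a highest library of at least 1 RPKM (11047) were compared as log2(RPKM + 1), and a difference of 1 or more was counted as 2-fold. RPKM ratios carry exact 95% conditional binomial (Clopper-Pearson) intervals, and levels exact Poisson intervals. There were no molecular identifiers, so reads are not independent molecules and these intervals cover counting error only. No test was run, because each condition has 1 library and the genes were chosen on these values. The interval code was tested on simulated data. The genes, the 12 pathway lists and the 11 marker lists were chosen with earlier results of these data known. Named besides the 6 genes are the 3 genes of highest Pearson r with each, every pathway gene at least 2-fold different between the cytokines at 24 h, and the highest of each list after 24 h of IL-2. Promoter windows came from a RefSeq table of GRCm38.p6, which holds 5 of the 6 genes, and Fam46a was matched by its newer symbol Tent5a. Alternatives were TMM and upper quartile scaling (edgeR 4.0.16, scaling factors only), a pseudocount of 0.1 RPKM, the longest transcript, and other filters on low values. Python 3.11.15 with scipy 1.17.1 and R 4.3.3 were used.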

Additional observations from a re-analysis of the deposited data

How the results depend on the processing

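No difference of 2-fold or more of the 6 genes reversed direction in the comparisons run under TMM scaling, upper quartile scaling, a pseudocount of 0.1 RPKM or the longest transcript. Their log2 differences moved beyond counting error in 2 of 108 values with TMM, 8 of 108 with upper quartile scaling, 76 of 108 with the smaller pseudocount, which by construction enlarges differences of low genes, and 0 of 108 with the longest transcript. Calls near the 2-fold limit moved: Akr1c18 between the cytokines at 0.5 h (1.00) was 0.97 with TMM, Enah at 2 h (1.04) was 0.95 with the longest transcript, and Fam46a with IL-2 against the control at 24 h (1.15) was 0.95 with upper quartile scaling. With the pseudocount of 0.1, 1 of the 6 genes was at least 2-fold higher with IL-21 than in the control at 2 h and 1 at 4 h (Enah both times), and 2 at 24 h (Enah at 2.16 and Myo6 at 1.30); 2 were lower at 2 h than at 0.5 h of IL-21. Over all genes that pseudocount gave 55, 140 and 425 higher with IL-2 than IL-21 at 0.5, 2 and 4 h, 1097 lower at 24 h, and 73 and 534 higher with IL-2 than in the control at 0.5 and 2 h. Against the control, IL-21 gave 62, 328, 250 and 293 higher and 20, 289, 310 and 456 lower at 0.5, 2, 4 and 24 h. Within the IL-2 series it gave 491 higher and 377 lower from 0.5 to 2 h and 64 higher from 2 to 4 h, and within IL-21 223 lower from 0.5 to 2 h. With upper quartile scaling 689 genes were higher with IL-2 than in the control at 24 h, and the median of all genes there was -0.12 in place of 0.05. With no filter or one of 5 RPKM the counts of the 6 genes were the same, and those of all genes stayed within 1.5 times. No paired analysis was possible because each RNA condition has 1 library. Depth limits Enah, B4galt4 and Hbegf, which had 8, 18 and 27 reads in the control.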

Other observations

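The nearest genes on the chromosome, up to 2 on each side, were looked up after the values were seen. Of 13 such genes at 1 RPKM or more, 2 (Akr1c13 and Ttk) were at least 2-fold higher in the 24 h library of IL-2 than in that of IL-21 (15.4%) and 0 were lower, beside 9.85% and 6.06% of all genes. Beside Akr1c18, in the gene order of GRCm38.p6, Akr1c13 had 27.8 RPKM in the 24 h library of IL-2 and 4.76 in that of IL-21, while Akr1c14 on the other side had 0 reads in both. Beside Myo6, the SUMO protease gene Senp6 was at 25.0 and 23.0 RPKM. Beside Enah, the lamin B receptor gene Lbr was at 107 and 65.8 RPKM and Srp9 of the signal recognition particle at 66.6 and 45.9 RPKM. Beside B4galt4, Arhgap31 was at 2.87 and 2.77 RPKM, and beside Hbegf, the prefoldin gene Pfdn1 was at 43.4 and 23.3 RPKM. Directly beside Fam46a, Bckdhb was at 10.9 and 19.7 RPKM and Ibtk at 13.4 and 14.3 RPKM. The mitotic kinase gene Ttk, the next gene beyond Bckdhb, was at 17.0 and 4.38 RPKM.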
